A study of Mus musculus with 2 samples.

Results

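The circadian clock of skeletal muscle was followed through 10 genes: Arntl, Clock, Per1, Per2, Cry1, Nr1d1, Dbp, Hlf, Bhlhe41 and Nfil3. They were chosen by name, and a probe was taken as theirs when the array's own gene name, or the current symbol of its transcript accession, was one of the 10 (Bhlhe41 is listed under its older name Bhlhb3). All 10 had a probe, 19 probes in all out of 41174 on the array, and all 19 were well above background and unsaturated in both samples, so that all 10 were among the 15401 genes measured on both arrays. Of the 19 probes, 18 were named through a RefSeq accession and 1 Clock probe through the array's name alone.

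The 2 samples were compared on 1 array each. The denervated sample pooled RNA from the gastrocnemius, a calf muscle, of 6 male wild-type C57BL/6 mice 14 days after denervation, which was done at 7 weeks of age. The control sample pooled gastrocnemius RNA of 6 control mice. Mice of both groups are given as 9 weeks old, and only the title of the control sample calls it a sham control. With a single array of pooled RNA for each group no test could be run, every difference describes these 2 pools, and the error after ± is the scanner software's technical error only. The time of day at which muscles were taken is not given in the labels, and the effect of time of day on these genes was not tested.

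In mammals the clock is a transcription loop with a period of about a day that runs in nearly every cell, muscle fibres included. ARNTL (also called BMAL1) and CLOCK bind E-box sequences and switch on the Per and Cry genes, whose proteins then block them. A second loop runs through the nuclear receptor NR1D1 (REV-ERB alpha), which represses Arntl through ROR elements, and the outputs DBP, HLF and their antagonist NFIL3 act on D-box sequences. In healthy muscle this clock sets daily rhythms of sugar and fat use.

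The promoters of 5 of these genes are shown for the clock motifs in them: the 3 genes that differed most between the pools, of which Hlf holds no match here, then Cry1 and Per1, which both hold an E-box and differed in opposite directions. Each line gives the 250 bases before the first annotated transcription start, 5′ to 3′, from RefSeq (GRCm38.p6), in lower case. Capitals mark the motifs, each of which was searched on both strands. The E-box, bound by ARNTL with CLOCK, was searched as CACGTG. Its weaker variant, the E′-box, was searched as CACGTT, and a match on the opposite strand appears in print as AACGTG. The D-box, bound by DBP, HLF, TEF and NFIL3, was searched as TTACGTAA or with a central T as TTATGTAA. The ROR element, bound by NR1D1 and the ROR receptors, was searched as TAGGTCA and also, with a different second letter, as TGGGTCA. In the Nfil3 line it lies on the opposite strand and is printed as TGACCTA.
Hlf (chr11:90390918-90391167, minus strand): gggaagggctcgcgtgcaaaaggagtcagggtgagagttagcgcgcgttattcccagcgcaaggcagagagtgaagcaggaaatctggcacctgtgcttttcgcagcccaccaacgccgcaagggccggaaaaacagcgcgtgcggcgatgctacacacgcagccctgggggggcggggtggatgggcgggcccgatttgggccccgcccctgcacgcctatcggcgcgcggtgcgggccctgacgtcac
Bhlhe41 (chr6:145865421-145865670, minus strand): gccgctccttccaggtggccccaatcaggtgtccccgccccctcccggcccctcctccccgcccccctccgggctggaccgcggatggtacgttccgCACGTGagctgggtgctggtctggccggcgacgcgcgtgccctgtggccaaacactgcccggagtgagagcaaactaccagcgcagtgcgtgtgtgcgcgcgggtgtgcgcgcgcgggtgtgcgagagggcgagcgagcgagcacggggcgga
Nfil3 (chr13:52981040-52981289, minus strand): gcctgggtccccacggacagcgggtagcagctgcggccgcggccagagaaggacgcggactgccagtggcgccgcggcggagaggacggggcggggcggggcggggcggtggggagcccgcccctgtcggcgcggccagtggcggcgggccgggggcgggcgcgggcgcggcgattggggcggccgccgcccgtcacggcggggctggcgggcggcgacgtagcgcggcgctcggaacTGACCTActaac
Cry1 (chr10:85185055-85185304, minus strand): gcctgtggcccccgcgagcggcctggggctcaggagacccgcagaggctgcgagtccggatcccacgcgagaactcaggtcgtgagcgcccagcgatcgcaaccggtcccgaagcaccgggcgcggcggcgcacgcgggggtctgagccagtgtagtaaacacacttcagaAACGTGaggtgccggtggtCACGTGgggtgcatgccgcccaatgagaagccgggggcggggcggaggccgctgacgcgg
Per1 (chr11:69098699-69098948, plus strand): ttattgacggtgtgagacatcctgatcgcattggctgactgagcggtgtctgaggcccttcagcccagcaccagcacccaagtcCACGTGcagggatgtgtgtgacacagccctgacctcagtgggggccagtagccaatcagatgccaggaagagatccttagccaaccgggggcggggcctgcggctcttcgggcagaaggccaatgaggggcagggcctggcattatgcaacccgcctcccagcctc

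Windows from 250 bases before to 50 after a start were listed for 9 of the 10 genes, Per2 being the exception. The E-box was in 3 of the 9 genes (Per1, Cry1 and Bhlhe41), against 8.09% of all 27025 genes with a window. The E′-box was in Cry1 and Nr1d1, against 5.44% of genes. The ROR element was in Nfil3, 12 bases before the start, and in Arntl, 30 bases after its second start, against 7.35% of genes. None of the 9 held the D-box, which 1.23% of genes held, and Clock, Dbp and Hlf held none of the 4 motifs in this window. No matches overlapped, and a match is a description of the letters and not a measured binding site.

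Of the 10 genes, 3 had a signal at least 2-fold lower in denervated muscle than in control muscle, and none was 2-fold higher. Over all measured genes the background was 8.52% past 2-fold downwards and 6.99% past 2-fold upwards. The 3 lower genes were Hlf, Bhlhe41 and Nfil3. Cry1, at 1.95-fold lower, fell just short of that threshold. Clock, Per1 and Per2 were each about 1.5-fold higher (1.48, 1.47 and 1.54), Arntl and Nr1d1 were lower by less than 1.5-fold, and Dbp was nearly level. The median log2 difference (denervated minus control) of the 10 was -0.36, against -0.11 over all measured genes, with 4 of the 10 above 0, against 42.8% of all genes. Of the 3 lower genes, Hlf alone stayed past 2-fold when the arrays were set equal on spike-in controls, where Bhlhe41 stood at -0.91 and Nfil3 at -0.88. The reported log2 difference of Cry1, -0.97, was the lowest over the processing settings, which ran up to -0.53. The share of higher genes among all genes past 2-fold was 45.1% as reported and 78.0% with spike-in scaling. In this bulk tissue a lower signal from fewer cells of a type and one from less RNA in each cell cannot be told apart.

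**Figure D1:**
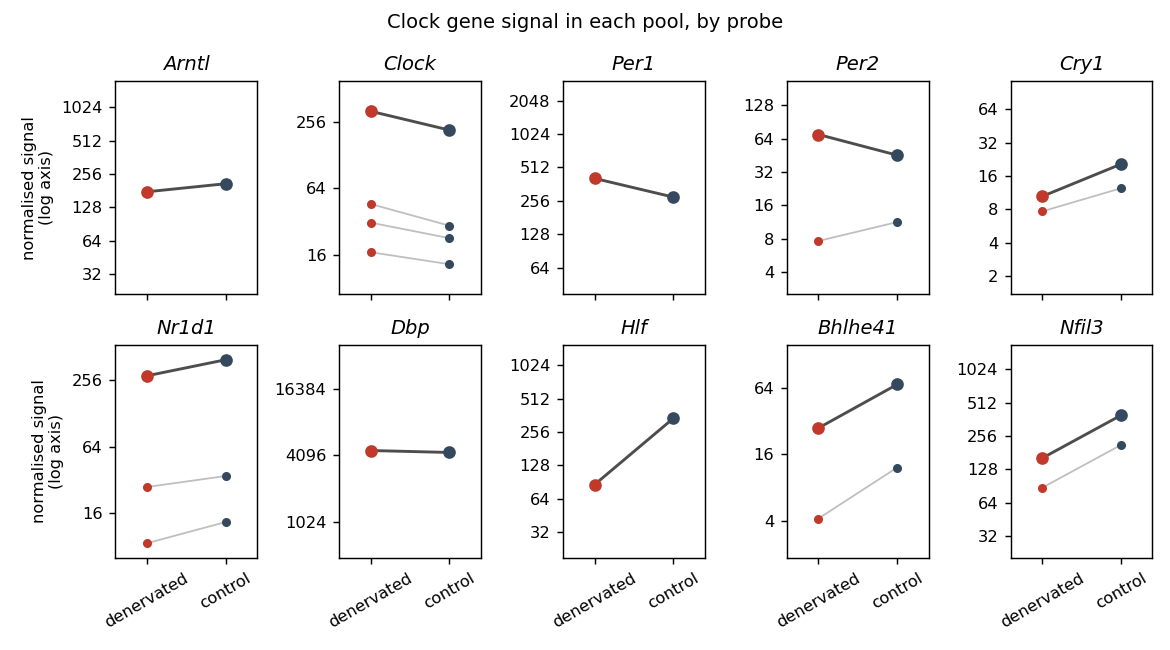
Normalised signal (log axis; 100 is the array's 75th percentile) of every probe of the 10 genes in the denervated pool and the control pool, 1 array each; every panel spans the same number of doublings, and the heavy line is the brightest probe. The steepest line is Hlf, at 85.6 in the denervated pool, against 339 in the control pool, while Dbp is nearly flat, at 4541 in the denervated pool, against 4362 in the control pool.

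Among the activators, Arntl, the partner without which the loop cannot run, had a normalised signal of 177 in the denervated pool, against 209 in the control pool (100 being the 75th percentile of the array). Its log2 difference was -0.24 ± 0.20, little more than the technical error, and it became 0.16 when the arrays were set equal on their spike-in controls (probe on chr7:113104645-113104704, mm8). Clock, its DNA-binding partner, had 317 in the denervated pool, against 215 in the control pool, a log2 difference of 0.56 ± 0.20. Its other 3 probes gave 0.65, 0.47 and 0.36, so that all 4, spread over 42.0 kb of the gene, were higher in the denervated pool. Arntl and Clock thus differed from each other by -0.81 ± 0.29 on the log2 scale, a contrast in which any scaling factor of an array cancels. Npas2, which can stand in for Clock, and Arntl2 were not well above background in either pool.

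Per1 and Per2, which encode the proteins that shut off ARNTL and CLOCK, were both higher in the denervated pool by their brightest probes. Per1 had a signal of 408 in the denervated pool, against 277 in the control pool, a log2 difference of 0.56 ± 0.20 from its only probe (chr11:68925571-68925630, mm8). Per2 had 69.6 in the denervated pool, against 45.3 in the control pool, a difference of 0.62 ± 0.20 by the probe nearest the 3′ end (chr1:93246875-93246934, mm8). A second Per2 probe, 23.5 kb further towards the 5′ end (chr1:93270367-93270426), gave the opposite sign, with 7.62 in the denervated pool, against 11.3 in the control pool (-0.57 ± 0.22). The direction of Per2 therefore rests on which probe is read, and the mean of both probes was 0.03. Per3, the third period gene, stood at -0.28 ± 0.21, or 0.12 with spike-in scaling.

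Cry1, the partner of the PER proteins and the stronger repressor of the CRY pair, was lower in the denervated pool. Its signal was 10.5 in the denervated pool, against 20.4 in the control pool, a log2 difference of -0.97 ± 0.22 (chr10:84561785-84561844, mm8). The second Cry1 probe gave -0.69 ± 0.23, with 7.65 in the denervated pool, against 12.4 in the control pool. Its relative Cry2 went the other way, with 333 in the denervated pool, against 181 in the control pool (0.88 ± 0.20), though its dimmer probe gave 0.18. Cry1 minus Cry2 was -1.84 ± 0.30, and lay between -1.84 and -0.88 under each of 12 other processing settings. Settings that only change the scaling factor of an array could not move this contrast. Ciart, a further repressor of ARNTL and CLOCK, had 53.5 in the denervated pool, against 77.0 in the control pool (-0.53 ± 0.20).

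Bhlhe41 (DEC2), which competes with ARNTL and CLOCK at E-boxes, was 2.47-fold lower. Its signal was 27.6 in the denervated pool, against 68.2 in the control pool, a log2 difference of -1.31 ± 0.21 (chr6:145819914-145819973, mm8), and a second probe gave -1.53 ± 0.24 (4.21 in the denervated pool, 12.1 in the control pool). Both probes thus passed 2-fold in the same direction. Bhlhe40 (DEC1), its closest relative, was level, at 638 in the denervated pool, against 632 in the control pool (0.01 ± 0.20), so that the DEC genes differed from each other by -1.32 ± 0.29.

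Nr1d1, the heme-binding repressor of Arntl, was lower by 3 probes of 3. The brightest gave 279 in the denervated pool, against 389 in the control pool (-0.48 ± 0.20; chr11:98585302-98585804, mm8), and the others gave -0.33 and -0.63. With spike-in scaling the brightest probe stood at -0.08. Nr1d2 (REV-ERB beta) had nearly the same difference, -0.53 ± 0.20, with 512 in the denervated pool, against 737 in the control pool. Rora, a receptor that activates Arntl through the elements NR1D1 represses, stood at 0.42 ± 0.20, and Nr1d1 minus Rora was -0.90 ± 0.29. Rorb was detected in control muscle alone, where it was at least 1.52-fold higher with the reported scaling. Its signals were near the lowest detected, at 1.34 in the denervated pool, against 2.55 in the control pool.

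The output factors ranged from near level to the lowest value of the 10 genes. Hlf, a PAR bZIP activator of D-box genes, had a signal of 85.6 in the denervated pool, against 339 in the control pool, which is 3.96-fold lower (-1.99 ± 0.20; 1 probe, chr11:90154754-90154813, mm8). It ranked 256 from the lowest of 15401 measured genes and was the lowest of the 10. Nfil3 (E4BP4), the repressor that competes for the same D-box sites, was 2.43-fold lower, with 162 in the denervated pool, against 393 in the control pool (-1.28 ± 0.20; chr13:52979648-52979707, mm8). Its second probe gave -1.28 as well, with 87.4 in the denervated pool, against 212 in the control pool.

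Dbp, the PAR bZIP gene that is usually the most strongly rhythmic clock output, was level. Its signal was 4541 in the denervated pool, against 4362 in the control pool, a log2 difference of 0.06 ± 0.20 (chr7:45577937-45577996, mm8), or 0.46 with spike-in scaling. Tef, the third PAR bZIP gene, had 2510 in the denervated pool, against 2008 in the control pool (0.32 ± 0.20, with probes down to -0.01). Hlf therefore stood apart from its relatives, by -2.04 ± 0.29 from Dbp and -2.31 ± 0.29 from Tef. Both contrasts were -1.97 or lower under each of the 12 other settings, but some settings could not change them. A scaling factor of an array cancels in a contrast, and Hlf and Dbp have 1 probe each. Hlf minus Dbp moved only with quantile scaling, loess scaling, normexp background correction and the deposited value table, between -2.17 and -1.98. Nfil3 minus Dbp was -1.34 ± 0.29. These contrasts between relatives were chosen after their values were seen.

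**Figure D2:**
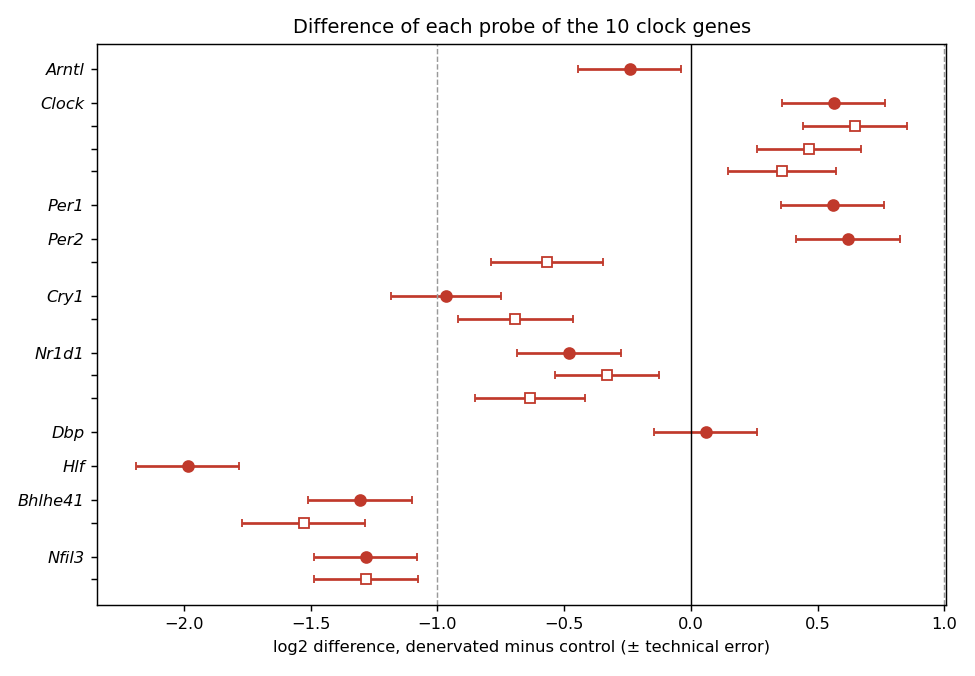
Log2 difference (denervated minus control) of each of the 19 probes, with the technical error as bars; filled circles are the brightest probe of a gene, open squares its other probes, and dashed lines mark 2-fold. All probes of Clock lie above 0 and all of Cry1, Nr1d1, Bhlhe41 and Nfil3 below it, whereas the Per2 probes lie at 0.62 and -0.57.

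Of the 6 genes with several probes, 5 had all probes on the same side of 0, and Per2 was the exception. Over the 5902 measured genes with several probes, 71.2% had all on the same side. In all 6 the brightest probe, whose value stands for the gene, was the one nearest the 3′ end. Arntl, Per1, Dbp and Hlf rest on 1 probe each.

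**Figure D3:**
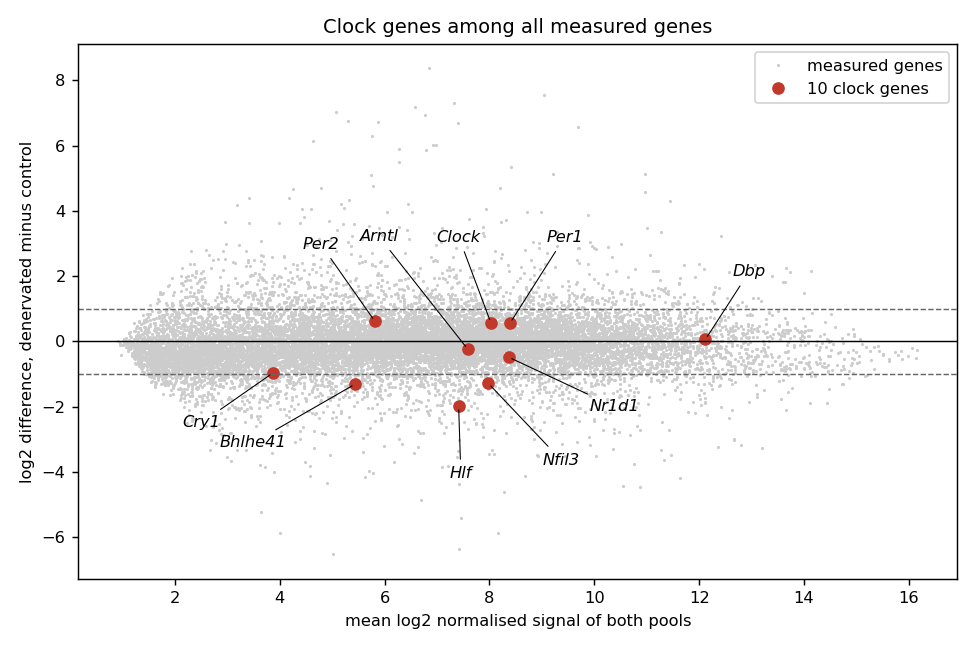
Log2 difference (vertical axis) against the mean log2 normalised signal of both pools (horizontal axis) for the 15401 measured genes (grey) and the 10 clock genes (red), with dashed lines at 2-fold. Hlf, Bhlhe41 and Nfil3 lie under the lower line, at ranks 256, 739 and 771 from the lowest, and Cry1 lies just above it.

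A further 10 clock genes of the same families included 7 measured ones, of which none was 2-fold higher or lower. Over all measured genes 84.5% were likewise past 2-fold in neither direction, 8.52% were lower and 6.99% higher. The median of all genes was -0.11, or 0.29 with spike-in scaling, and these values also stand beside the lists below. The 7 measured clock genes had a median log2 difference of 0.01, with 4 above 0. Cry2 had the largest difference of the 7, past 2-fold with spike-in scaling (1.28). By known daily timing, 10 genes were listed as driven mainly through E-boxes or D-boxes (Per1, Per2, Per3, Nr1d1, Nr1d2, Dbp, Tef, Hlf, Bhlhe41 and Ciart). This list had 4 members above 0 and 6 below, with a median of -0.38. The genes listed for the opposite phase, as driven through ROR elements, had 4 measured members (Arntl, Clock, Nfil3 and Cry1). Of these, 1 was above 0 and 3 were below, with a median of -0.60. In its promoter window Cry1 held an E-box and an E′-box but no ROR element, and Clock held none of the motifs searched. Scaled on spike-ins, the medians were 0.02 for the E-box and D-box list and -0.20 for the ROR list. Neither list lay on one side of 0 as a whole.

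**Figure D4:**
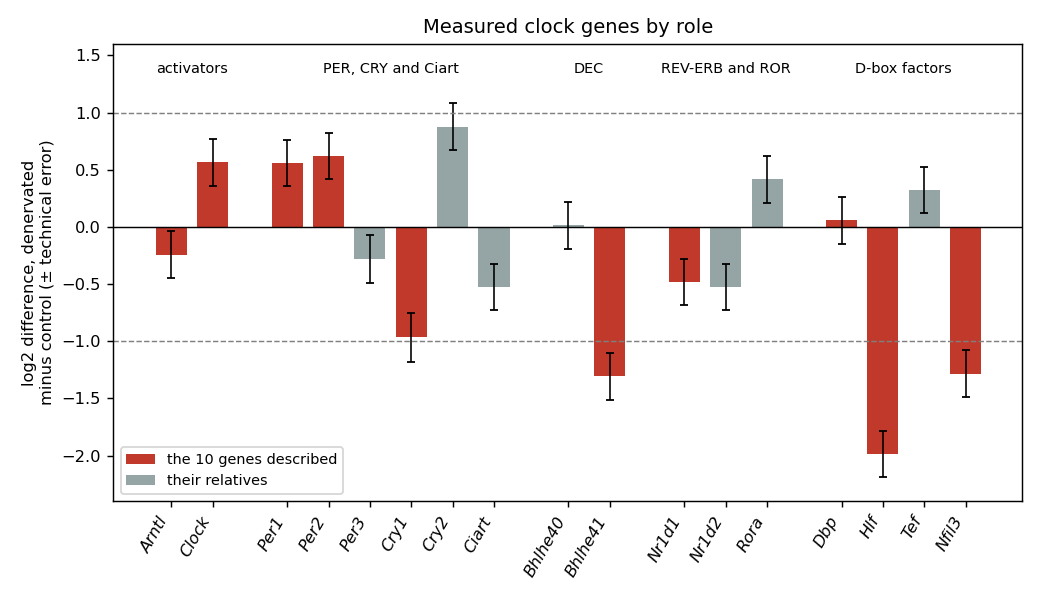
Log2 difference (denervated minus control, bars from 0, technical error as lines) of 17 measured clock genes by role; red bars are the 10 genes described, grey bars their relatives, dashed lines 2-fold. Hlf (-1.99) stands beside Dbp (0.06) and Tef (0.32), Cry1 (-0.97) beside Cry2 (0.88), and Bhlhe41 (-1.31) beside Bhlhe40 (0.01).

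Genes listed for the turnover of clock proteins, not all of them for enzymes, had 1 of 9 measured past 2-fold, downwards (median -0.11, or 0.29 with spike-in scaling). That gene was Prkaa2, which encodes a catalytic subunit of AMP kinase, an enzyme that marks CRY proteins for breakdown, at 1192 in the denervated pool, against 2466 in control muscle (-1.05 ± 0.20, or -0.65 with spike-in scaling). It was past 2-fold in 7 of the 12 other settings, and not under median, quantile or loess scaling. Casein kinase gene Csnk1e, whose product phosphorylates PER proteins, stood at -0.88 ± 0.20. Csnk2a1, which encodes a catalytic subunit of casein kinase 2, stood at 0.64 ± 0.20, with another probe at 0.19, and at 1.04 with spike-in scaling. The 9 cofactors of the loop, such as Ncor1 (-0.54 ± 0.20), Nono (0.37 ± 0.20) and Wdr5 (0.34 ± 0.20), had no member past 2-fold (median -0.09, or 0.31 with spike-in scaling). Probes of opposite sign were found for Ncor1 (up to 0.11), Nono (down to -0.01), Sfpq (-0.32 to 0.53), Kdm5a and Ep300, and the other Wdr5 probe gave 1.28.

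Among 8 measured outputs that cycle in many tissues, 2 passed 2-fold upwards and 1 passed it downwards (median 0.45, or 0.85 with spike-in scaling). Noct, which encodes the rhythmic protein nocturnin, had 133 in the denervated pool, against 404 in the control pool (-1.60 ± 0.20). Tspan4, a membrane tetraspanin gene, had 1432 in the denervated pool, against 592 in the control pool (1.27 ± 0.20), and Lonrf3 had 34.3 in the denervated pool, against 12.9 in the control pool (1.41 ± 0.21, or 0.86 by its other probe). The cell-cycle kinase gene Wee1, a direct clock target in mouse liver, was well above background in denervated muscle alone, where it was at least 4.59-fold higher (signal 9.53 in denervated muscle, against 2.08 in control muscle).

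Genes reported as targets of the muscle clock went both ways, 1 of 8 being past 2-fold upwards and 2 downwards (median -0.12, or 0.28 with spike-in scaling). Pdp1, the phosphatase that activates pyruvate dehydrogenase, had 214 in the denervated pool, against 969 in the control pool (-2.18 ± 0.20), and a second probe gave -1.49. Slc2a4, the insulin-sensitive glucose transporter gene, had 5773 in the denervated pool, against 16291 in the control pool (-1.50 ± 0.20). Myod1, a myogenic factor gene whose DNA ARNTL and CLOCK bind in muscle, had 526 in the denervated pool, against 80.6 in the control pool (2.71 ± 0.20).

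The arrays carried muscle RNA by the 6 myofibre markers, of which the brightest were Tnnt3 (63972 in the denervated pool, 73896 in the control pool) and Acta1 (41812 in the denervated pool, 60470 in the control pool). None of the 6 was past 2-fold (median -0.49, or -0.09 with spike-in scaling). The label of the denervated pool was checked on the receptor subunit gene Chrng, with 2088 in the denervated pool, against 6.33 in the control pool, Chrna1, with 9740 in the denervated pool, against 411 in the control pool, and the myogenic factor gene Myog, with 2166 in the denervated pool, against 53.6 in the control pool. Macrophage markers differed between the pools: 9 of 10 were at least 2-fold higher, and their summed signal was 5993 in the denervated pool, against 1944 in the control pool, with Lyz2 and Lgals3 the brightest. Endothelial markers summed to 1854 in the denervated pool, against 3101 in the control pool, with 1 of 6 past 2-fold downwards. Their brightest were Flt1 (-0.73) and Kdr (-1.12). Fibroblast markers had 1 of 6 past 2-fold in each direction (summed 22394 in the denervated pool, 19144 in the control pool). Schwann cell markers had 1 of 6 higher and 2 of 6 lower (437 in the denervated pool, 385 in the control pool). T and B cell markers had none of 4 measured genes past 2-fold (35.3 in the denervated pool, 51.7 in the control pool). A further B cell marker, Ms4a1, was well above background in control muscle alone, where it was at least 2.03-fold higher with the reported scaling. Its signals were near the lowest detected, at 0.896 in the denervated pool, against 3.42 in the control pool. With spike-in scaling 3 of 6 Schwann cell markers were past 2-fold upwards and 1 downwards, and fibroblast markers had 2 upwards and 0 downwards. No endothelial marker passed 2-fold with that scaling, and 10 of 10 macrophage markers were higher. Over all measured genes, 14.6% were past 2-fold upwards with that scaling and 4.11% downwards. The brightest markers were Dcn (0.15) and Col3a1 (0.63) for fibroblasts, Mbp (-1.38, with another probe at 1.87) and S100b (-0.04) for Schwann cells, and Cd3e (-0.55) and Cd79b (-0.39) for T and B cells. The part of these cell types in the clock gene differences was not tested.

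**Figure D5:**
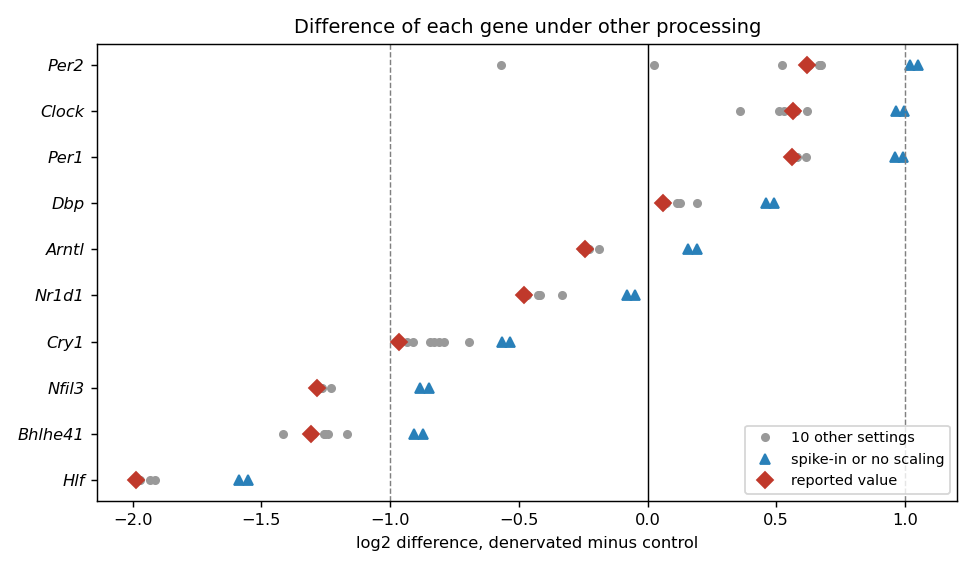
Log2 difference (denervated minus control) of each of the 10 genes as reported (diamond), under spike-in scaling or no scaling (triangles) and under the 10 other settings (grey circles), with dashed lines at 2-fold. Hlf stays below the lower line throughout, between -1.99 and -1.55, while Bhlhe41 and Nfil3 pass inside it only with the triangles.

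The scaling between arrays set the zero of every difference. Equal spike-in signals in place of equal 75th percentiles added 0.40 to each gene's difference, and then Hlf stood at -1.59 and Cry1 at -0.57. With that scaling Per2 (1.02) was past 2-fold higher, Per1 and Clock stood at 0.96, and the median of all genes became 0.29. A shift common to all genes cannot change the gap of -0.25 between the median of the 10 genes and that of all genes. That gap was -0.16 with normexp background correction and -0.36 with the probe of smallest difference.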

How the data were processed

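Pooled total RNA of each group was hybridised to 1 Agilent 1-colour array with Cy3-labelled cRNA. The deposited scanner files hold spot intensity from Feature Extraction (Agilent), version 9.5 by the submitters' processing notes and 9.5.3.1 per the file headers. Per the file headers the software subtracted background and detrended each array, with no scaling between arrays. The authors' deposited value table holds a score: intensity over the 75th percentile, times 100, rounded. The ratio of that score to intensity varied by 0.127% in the denervated column and 0.126% in the control column over spots with a score of 100 or more. The median score was 9 in the denervated column and 10 in the control column. Scale and direction were thereby settled, and the table served as an alternative.

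Marked outlier spots were left out (81 on the denervated array, 87 on the control array), spots of a probe averaged as log2, and the 75th percentile subtracted (intensity 1063 on the denervated array, 788 on the control array). Of all probes, 68.4% were well above background on the denervated array and 70.9% on the control array. A gene took its brightest probe that was well above background on both arrays. A gene above background on 1 array only has a bound, against the higher of the dim signal and the lowest signal well above background. The technical error combines the software's spot errors of both arrays. Only 2 arrays limit the precision, and no test was run. Both arrays share a slide and a scan, so array position and group cannot be told apart. Symbols come from RefSeq (GRCm38.p6), and probe positions are mm8 as in the files. Members and gene lists were chosen with earlier results of these data known, and some genes are not reported here. Named genes are all members, their families, the largest differences of each further list, the brightest markers, and 3 genes that check the denervation label. Calculations used Python 3.11.15, R 4.3.3 and limma 3.58.1, and were tested on simulated data.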

Additional observations from a re-analysis of the deposited data

How the results depend on the processing

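The 12 other settings covered scaling (median, quantile, loess, spike-in, none), normexp background correction, the deposited value table, the filter on dim probes (none, or 4 times the dimmest detected probe), keeping marked spots, and the probe of a gene (mean, or smallest difference). Of 120 recomputed member differences, 97 moved by no more than the technical error, 23 by more, and no 2-fold difference changed sign. Below 2-fold, Arntl was above 0 with spike-in scaling (0.16) and without scaling (0.19), and Per2 was -0.57 by its smallest-difference probe. The filters on dim probes changed no member, because the brightest probe of each passed them. The choice of probe cannot change a gene with 1 probe. Spike-in scaling and no scaling each shifted every member by the same amount, and all these shifts count among the 23. The 97 is therefore no measure of how firm the differences are.

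With spike-in scaling, and equally without scaling, 1 member passed 2-fold upwards and 1 downwards. The members' median was 0.038 with spike-in scaling and 0.071 without scaling, and that of the other clock genes 0.41 with spike-in scaling and 0.45 without scaling. The median of the other clock genes was -0.39 when dim probes were not filtered, which adds 3 dim genes. At a 1.5-fold threshold 1 member was higher and 4 were lower, and at 3-fold 0 were higher and 1 was lower. Over all genes, spike-in scaling gave 2242 higher and 633 lower genes and no scaling 2383 higher and 595 lower, against 1076 higher and 1312 lower as reported. A 1.5-fold threshold gave 2316 higher and 3413 lower genes, and a 3-fold threshold 423 higher and 483 lower. With no filter on dim probes 2514 of 21549 genes were lower (11.7%), against 1312 of 15401 as reported (8.52%). The cause of the scaling difference was not tested. No paired analysis was possible because each group has 1 array, for which reason no replicate could be left out. Signals under about 2 are near the lowest detected (1.68 on the denervated array, 1.84 on the control array).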
